A study of Homo sapiens with 9 samples.

Results

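A set of 36 protein-coding genes had lower transcript levels in neural progenitors than in the human embryonic stem cells they were made from. Levels were higher again in the serotonin neurons that followed. The fall is relative, as some members such as BEX1 and PWP1 remained abundant in the progenitors. The genes were chosen by their measured values in a table of 34961 genes. Their lowest level in the 6 Day0 and Day42 libraries was at least 3 FPKM and at least 2 times their highest level in the 3 Day21 libraries. FPKM is the number of sequenced fragments scaled to transcript length and to the size of the library. Chromosome Y was left out, as were 4 genes named in the rule, STC1, EPCAM, SPINT2 and INSIG1, without which 36 of the 40 genes that met the thresholds remained. The 36 are 0.208% of the 17319 protein-coding genes in the table, 1.32% of the 2717 that were at or above 3 FPKM in every Day0 and Day42 library, and 9.68% of the 372 that were at or above 3 FPKM in every Day0 library and at least 2 times as high there as in any Day21 library. The opposite shape, with Day21 at least 2 times above both other days, was found in 93 genes.

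The cells were WA09, a human embryonic stem cell line, and carried EGFP knocked in at TPH2, the gene of the enzyme that starts serotonin synthesis in the brain. All 9 libraries share this genotype, and the labels give induction of serotonin neurons as the treatment of all of them, the Day0 stem cells included. Day0 libraries were labelled as embryonic stem cells, Day21 libraries as neural progenitor cells and Day42 libraries as TPH2+ serotonin neurons, with 3 libraries a day. The labels number these as biological replicates and do not say whether they were separate differentiations, so p-values measure only the spread between libraries, which may be technical. Neither the labels nor the design text say whether or how Day42 cells were sorted by the reporter.

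Because the rule used Day21 against both other days, the lower Day21 level is a description here and carries no test. Day42 against Day0 is the contrast whose direction the rule did not set, but both days had to be high. A gene lost by Day42 or silent on Day0 could therefore not be a member. Some proteins of stem cells belong to general cell machinery that a postmitotic neuron also uses, such as vesicle transport, lipid synthesis and actin bundling, and others serve different roles in an epithelium and in a neuron. The RNA of each library came from many cells together, so fewer cells with a transcript and less of it per cell cannot be told apart.

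Total counts ran from 58526466 to 69658328 per library. Between 22198 and 24741 genes had a count in the Day0 and Day21 libraries, against 17101 or fewer in the Day42 libraries and 10797 in Day42 replicate 3. Marker genes were set against the labels. The summed FPKM of 12 pluripotency markers was 345 to 626 on Day0, 24.5 to 35.8 on Day21 and 0.119 to 4.15 on Day42, where NANOG, TDGF1, ZFP42 and PRDM14 were at 0. Markers of serotonin neurons summed to at most 2.50 on Day0 and Day21 and to 665 to 726 on Day42, with the serotonin transporter gene SLC6A4 at 0 on Day42. The 11 neural progenitor markers summed to 57.9 to 82.4 on Day0, 219 to 266 on Day21 and 76.1 to 118 on Day42. VIM and FABP7 made most of the Day21 sum, with PAX6 at 0.297 to 0.341 and SOX1 at 0.292 to 0.433 FPKM there. Each day's transcriptome differs so much in makeup that the scale matters. Compared with the deposited FPKM, TMM scaling, which makes the bulk of genes equal between libraries, multiplies Day42 values by 0.697 to 0.765 and the others by 1.02 to 1.31.

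The 36 genes together took 0.429%, 0.543% and 0.468% of counts in the 3 Day0 libraries, 0.101%, 0.0905% and 0.0981% on Day21, then 0.639%, 0.575% and 0.700% on Day42. No member was at 0 in any library, and the lowest count was 5, for B3GNT7 on Day21. The lowest Day0 or Day42 value divided by the highest Day21 value, called the dip ratio here, ran from 2.02 to 21.8 with a median of 2.90. It was 3 or more in 15 members and below 3 in 21. The mean Day0 level was 2.29 to 427 times the mean Day21 level (median 4.88), and the mean Day42 level 2.96 to 136 times (median 6.16).

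**Figure D1:**
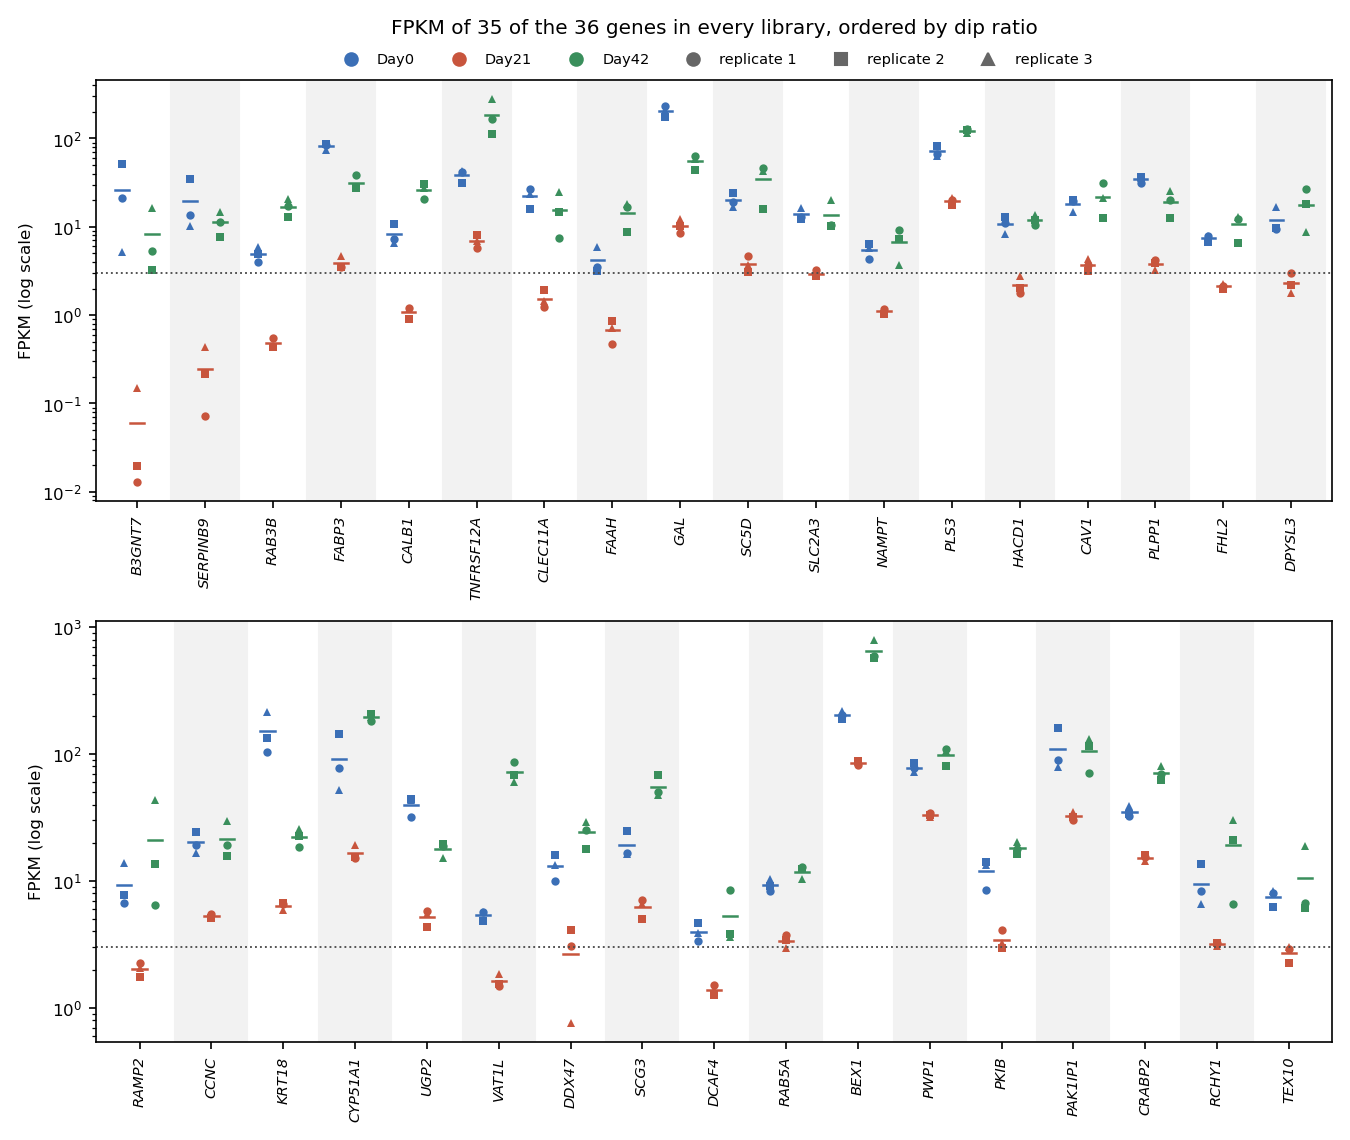
FPKM on a log axis for 35 of the 36 genes in every library, ordered by dip ratio from the upper left to the lower right. Colours give the day, symbols the replicate and short bars the day's mean, and the dotted line is the 3 FPKM floor that all Day0 and Day42 values had to reach. B3GNT7 and SERPINB9 lie far below 1 FPKM on Day21, whereas genes such as BEX1 and PWP1 remain well above the floor there.

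SERPINB9, an intracellular serine protease inhibitor known for blocking granzyme B, lies at chr6:2887270-2903309 on the minus strand of GRCh38. Its FPKM were 13.4, 34.5 and 10.3 on Day0, 0.0726, 0.215 and 0.441 on Day21, then 11.3, 7.71 and 14.9 on Day42. Every Day21 library was below 1 FPKM and every other library above 7, while the Day0 and Day42 ranges overlapped. The Day21 values rest on 26, 74 and 147 counts. With a dip ratio of 17.5 it followed B3GNT7, and under TMM scaling the ratio was 10.2. Of the 5 other family B serpins that were tested, none had every Day21 library below all others. SERPINB8 took another course, with 0.548 to 0.755 FPKM on Day0, 1.26 to 1.60 on Day21 and 9.26 to 17.7 on Day42, and rose from Day0 to Day42 (log2 change 3.55, SE 0.45, adjusted p = 0.00114, edgeR quasi-likelihood test). GZMB, the gene of granzyme B, was not analysed here. The perforin gene PRF1 and the granzyme genes GZMA, GZMH and GZMM summed to at most 0.827 FPKM in any library, and 10 markers of cytotoxic lymphocytes, which include these 4, to at most 1.63.

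RefSeq promoter sequences, on build GRCh38.p14, were matched to 28 of the 36 members by symbol. Among those not matched were CALB1, GAL, KRT18, PLPP1, RAMP2, SLC2A3 and TNFRSF12A. The 250 bases before the annotated start are given for 4 members, read 5′ to 3′ toward the gene. They are SERPINB9, which marks the group, SC5D, a sterol enzyme, and BEX1 and PWP1, members high on all 3 days that share a CACGTG with SC5D. Capitals mark every CACGTG (an E-box), GGGCGG (an SP1 box), CCAAT and TATAAA found on either strand. The windows are chr6:2903310-2903559 on the minus strand for SERPINB9, chr11:121292521-121292770 on the plus strand for SC5D, chrX:103064172-103064421 on the minus strand for BEX1 and chr12:107685549-107685798 on the plus strand for PWP1.
SERPINB9: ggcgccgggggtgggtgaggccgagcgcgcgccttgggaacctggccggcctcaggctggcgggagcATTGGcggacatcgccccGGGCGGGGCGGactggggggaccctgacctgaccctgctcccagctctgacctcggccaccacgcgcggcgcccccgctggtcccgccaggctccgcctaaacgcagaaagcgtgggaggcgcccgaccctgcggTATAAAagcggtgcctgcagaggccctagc
SC5D: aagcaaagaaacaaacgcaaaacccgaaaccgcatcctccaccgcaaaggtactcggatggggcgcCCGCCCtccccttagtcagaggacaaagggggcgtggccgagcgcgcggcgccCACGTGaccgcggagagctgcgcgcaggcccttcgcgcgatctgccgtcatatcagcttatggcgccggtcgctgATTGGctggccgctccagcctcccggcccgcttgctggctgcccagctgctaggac
BEX1: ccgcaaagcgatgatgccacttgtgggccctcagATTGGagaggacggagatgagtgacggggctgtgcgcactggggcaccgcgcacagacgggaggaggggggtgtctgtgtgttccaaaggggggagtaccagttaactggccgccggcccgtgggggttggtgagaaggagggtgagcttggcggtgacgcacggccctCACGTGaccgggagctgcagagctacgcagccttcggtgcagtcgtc
PWP1: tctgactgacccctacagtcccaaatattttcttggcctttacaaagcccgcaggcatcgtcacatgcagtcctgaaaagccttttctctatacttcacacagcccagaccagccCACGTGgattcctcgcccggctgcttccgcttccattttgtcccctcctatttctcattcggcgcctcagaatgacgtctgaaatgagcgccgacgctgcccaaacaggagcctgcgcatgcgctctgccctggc

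SERPINB9 holds a TATAAA from 30 to 25 bases before its start and 2 GGGCGG that share a base, whereas the CACGTG lies 131 to 126 bases before the start in SC5D, 47 to 42 in BEX1 and 135 to 130 in PWP1. CACGTG occurred in 7 of the 28 member windows (25.0%: SC5D, FHL2, DCAF4, RAB5A, BEX1, PWP1 and TEX10), in 6.49% of all 27305 RefSeq promoters and in 10.1% of the 2278 whose genes were at 3 FPKM or more in all Day0 and Day42 libraries. ACGTG, which every CACGTG contains, was in 14 member windows (50%), 18.7% of all promoters and 27.9% of those of the expressed genes. GGGCGG was in 18 (64.3%, against 42.3% and 69.1%) and CCAAT in 9 (32.1%, against 33.0% and 39.2%). TATAAA was in SERPINB9 and FHL2 (7.14%, against 11.1% and 5.09%), and the AP-1 letters TGACTCA or TGAGTCA in RAB3B alone (3.57%, against 4.16% and 2.37%). No member window held TGACGTCA (1.77% and 3.73%), ACCGGAAGT (0.864% and 2.77%) or CACCCCAC (2.37% and 2.02%). Median GC content was 63.6% in the members, 63.6% in the expressed genes and 58.0% in all promoters. These matches describe letters in a short window and were given no test.

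Several members act at the cell surface or in the cell's outer structure. B3GNT7, a Golgi enzyme that adds N-acetylglucosamine to sugar chains such as keratan sulfate (chr2:231395710-231401164), had the deepest dip. Its FPKM were 21.3, 51.5 and 5.24 on Day0, 0.0129, 0.0198 and 0.150 on Day21, then 5.28, 3.27 and 16.2 on Day42. The Day21 values rest on 5, 6 and 44 counts, and the spread within Day0 and within Day42 was wide enough for these days to overlap. TNFRSF12A encodes Fn14, the receptor of the cytokine TWEAK, and stood at 41.3, 31.7 and 43.2 FPKM on Day0, 5.74, 7.99 and 6.84 on Day21, then 167, 112 and 276 on Day42. All 3 Day42 libraries were above all Day0 libraries. CLEC11A, a secreted growth factor of the C-type lectin family, was at 26.9, 16.0 and 23.6 FPKM on Day0, 1.23, 1.94 and 1.44 on Day21, then 7.50, 14.6 and 24.7 on Day42, where replicate 3 alone reached the upper Day0 values.

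CAV1, the main coat protein of caveolae, had 19.6, 20.2 and 14.5 FPKM on Day0, 3.68, 3.13 and 4.28 on Day21, then 31.5, 12.7 and 21.4 on Day42. RAMP2, which pairs with the calcitonin receptor-like receptor to form an adrenomedullin receptor, had 6.68, 7.70 and 13.8 FPKM on Day0, 2.26, 1.74 and 2.07 on Day21, then 6.51, 13.6 and 43.6 on Day42. Both genes overlapped between Day0 and Day42, and RAMP2 in Day42 replicate 3 was 6.70 times its level in replicate 1, the widest spread of any member on that day. PLS3, an actin-bundling plastin (chrX:115561174-115650861), was tight by contrast, with 67.2, 83.1 and 63.4 FPKM on Day0, 20.2, 17.7 and 20.9 on Day21, then 127, 125 and 115 on Day42. FHL2, a LIM-domain protein that works as a transcriptional cofactor and at adhesions, had 7.95, 6.74 and 7.81 FPKM on Day0, 2.13, 1.99 and 2.24 on Day21, then 12.4, 6.54 and 13.0 on Day42.

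KRT18, the keratin of simple epithelia (chr12:52948871-52952900), returned only in small part. Its FPKM were 104, 134 and 216 on Day0, 6.55, 6.69 and 5.87 on Day21, then 18.7, 22.7 and 25.6 on Day42. Every Day42 library was above Day21 and far below Day0. Its filament partner KRT8, which is no member, had 11.96 to 45.9 FPKM on Day0, 2.29 to 3.92 on Day21 and 0.0271 to 0.972 on Day42 and fell from Day21 to Day42 (log2 change -3.29, SE 1.03, adjusted p = 0.0463, edgeR). KRT8 overlaps KRT18 on the opposite strand, and 68 pseudogenes carry the name of KRT18 in GENCODE 29, so its reads may be shared or divided. Among the other 29 genes of apical junctions and epithelial keratins, 0 passed as higher and 20 as lower from Day0 to Day42 in edgeR's test, where 8.82% of all genes tested were called higher and 23.4% lower. From Day21 to Day42, KRT19 passed as higher and 7 as lower, against 6.52% and 19.7% of all genes. EPCAM and SPINT2, epithelial genes left out of the set by name, are not in this list. None of the 29 had every Day21 library below all Day0 and Day42 libraries, and the summed FPKM of the list was 426 to 600 on Day0, 12.4 to 16.7 on Day21 and 38.3 to 41.5 on Day42.

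Lipid handling is the known role of 6 members. CYP51A1 and SC5D are enzymes of the last part of cholesterol synthesis, the first removing a methyl group from lanosterol and the second setting a double bond in the sterol ring. CYP51A1 (chr7:92112153-92134803) had 77.8, 145 and 51.8 FPKM on Day0, 15.1, 15.5 and 19.2 on Day21, then 182, 209 and 195 on Day42. SC5D (chr11:121292681-121308630) had 19.2, 24.0 and 16.8 FPKM on Day0, 4.66, 3.04 and 3.73 on Day21, then 45.9, 15.8 and 42.3 on Day42. Day42 lay above Day0 in all libraries for CYP51A1 in FPKM but overlapped Day0 in TMM-scaled counts, while for SC5D replicate 2 of Day42 was below every Day0 library.

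The rest of a list of 26 sterol synthesis and uptake genes shows how far this course extends around these 2 members. All 24 others were tested with edgeR. From Day0 to Day21, 4 fell, among them IDI1, FDFT1 and MSMO1, and 0 rose, where 1.18% of all 20156 genes tested were called lower and 1.32% higher. From Day21 to Day42, 6 rose, among them HMGCS1, IDI1, SQLE, MSMO1 and INSIG2, and 1 fell, against 6.52% called higher and 19.7% lower over all genes. In 8 of the 24 every Day21 library was below every Day0 and Day42 library (among them MVD, IDI1, FDFT1, SQLE, MSMO1, DHCR7 and STARD4). This pattern was found in 598 protein-coding genes, or 3.45% of all of them, silent ones included. Its share among genes expressed as highly as the sterol genes was not counted. The list was chosen with earlier results known, so nothing is read from the difference. The 8 sterol genes are ones whose values did not reach the thresholds of the rule. IDI1, the isomerase that makes the reactive building block of the pathway, had 46.5 to 71.6 FPKM on Day0, 17.1 to 31.1 on Day21 and 156 to 216 on Day42, with the 3 days apart. MSMO1, the sterol methyl oxidase that acts after CYP51A1, had 78.9 to 106 FPKM on Day0, 33.8 to 42.1 on Day21 and 419 to 467 on Day42. From Day0 to Day42, 3 passed as higher, among them MSMO1 and INSIG2, and 3 as lower, among them FDPS and NSDHL. The list summed to 1351 to 1709 FPKM on Day0, 593 to 660 on Day21 and 1978 to 2137 on Day42.

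**Figure D2:**
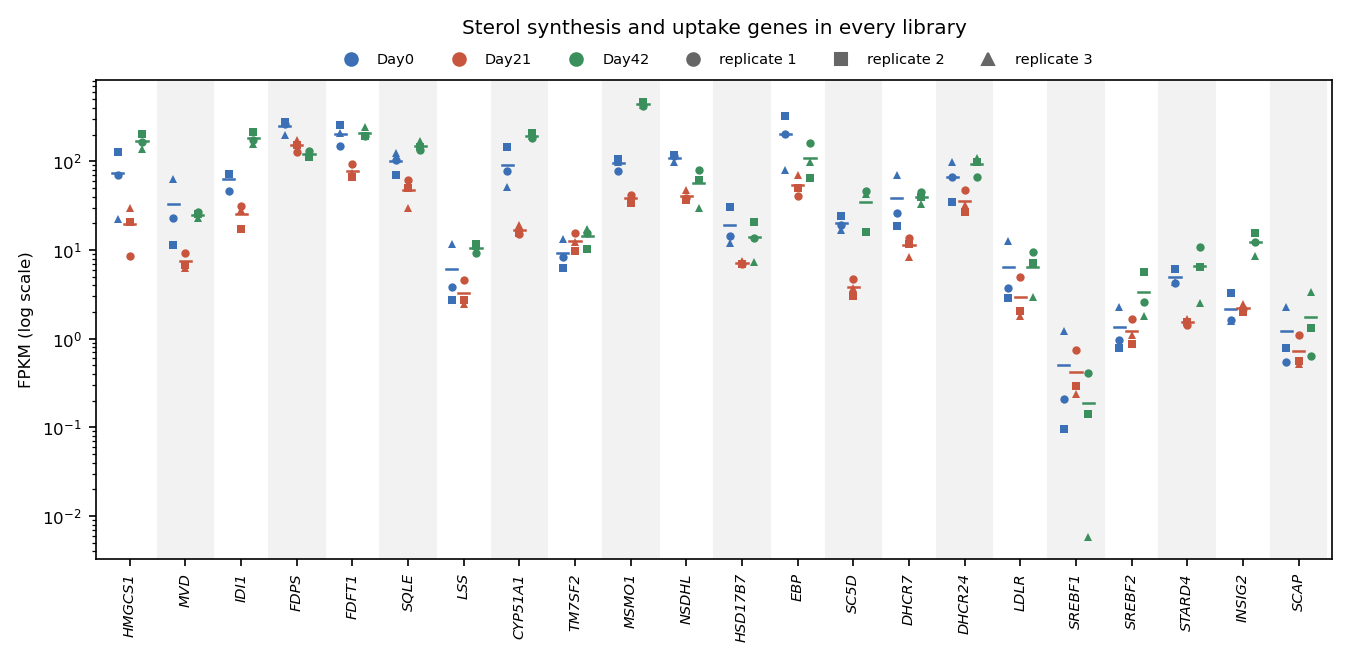
FPKM on a log axis of 22 of the 26 sterol synthesis and uptake genes in every library; colours give the day, symbols the replicate and short bars the day's mean, and the other 4 are not drawn. CYP51A1, SC5D, IDI1 and MSMO1 have all Day21 libraries below the other days, whereas TM7SF2, SREBF1 and SREBF2 do not.

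FABP3, which carries fatty acids in the cytosol, had 83.7, 86.5 and 74.0 FPKM on Day0, 3.50, 3.52 and 4.72 on Day21, then 38.2, 27.7 and 27.7 on Day42. PLPP1, a phosphatase of lipid phosphates at the cell membrane, had 31.7, 36.2 and 35.6 FPKM on Day0, 4.24, 3.84 and 3.28 on Day21, then 19.9, 12.4 and 25.5 on Day42. In both genes the 3 days were apart, with Day42 between Day21 and Day0. FAAH, which breaks down anandamide and other fatty acid amides, had 3.55, 3.15 and 5.95 FPKM on Day0, 0.471, 0.850 and 0.720 on Day21, then 16.7, 8.69 and 18.1 on Day42, above Day0 in every library in FPKM though not in TMM-scaled counts. HACD1, a dehydratase in the lengthening of very long fatty acids, had 10.9, 12.8 and 8.31 FPKM on Day0, 1.77, 2.03 and 2.76 on Day21, then 10.6, 12.03 and 13.6 on Day42, overlapping Day0. A list of 20 genes of fatty acid synthesis and lipid droplets held no member, where members are 0.208% of protein-coding genes. In 5 of them (ACLY, SCD, ELOVL5, ACSL1 and ACSL4) every Day21 library was below every Day0 and Day42 library. Of all protein-coding genes, silent ones included, 3.45% had this pattern.

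Another group of members is known from neurons and secretory cells. RAB3B, a small GTPase of secretory vesicles (chr1:51907956-51990700), had 3.98, 4.97 and 5.92 FPKM on Day0, 0.551, 0.432 and 0.451 on Day21, then 17.1, 13.1 and 20.7 on Day42. SCG3, a granin that helps to form secretory granules, had 16.7, 24.6 and 16.4 FPKM on Day0, 7.06, 5.01 and 6.60 on Day21, then 50.5, 68.2 and 47.3 on Day42. The 3 days were apart in both genes, in the order Day21, Day0, Day42. Of the other 20 genes of secretory granules and prohormone processing, 5 rose and 0 fell from Day0 to Day21 in edgeR's test (1.32% and 1.18% of all genes tested), among them SCG2 (0.110 to 0.224 FPKM on Day0 and 2.03 to 3.02 on Day21) and CPE (3.66 to 6.64 and 56.0 to 75.0). From Day21 to Day42, 10 rose and 0 fell (6.52% and 19.7% of all genes). SCG5 was the one gene of these 20 with every Day21 library below all others, at 5.83 to 7.26 FPKM on Day21 against 12.9 to 15.7 on Day0 and 62.5 to 80.5 on Day42.

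GAL, the neuropeptide galanin (chr11:68683779-68691175), had the highest Day0 mean of all members (206 FPKM, SD 29.3, n = 3), and BEX1 (204, SD 14.2, n = 3) did not differ from it beyond this spread. The FPKM of GAL were 233, 175 and 210.3 on Day0, 8.46, 10.1 and 12.3 on Day21, then 63.4, 43.5 and 58.4 on Day42, with the days apart. Of 18 other neuropeptide and hormone genes tested, TAC1 and PENK had every Day21 library below all others. TAC1 stood at 5.17 to 7.62 FPKM on Day0, 2.20 to 2.86 on Day21 and 182 to 229 on Day42. SST ran the opposite way, at 1.97 to 3.34 FPKM on Day0, 111 to 136 on Day21 and at most 0.0946 on Day42.

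CALB1, the calcium-binding protein calbindin, had 7.37, 10.7 and 6.62 FPKM on Day0, 1.21, 0.893 and 1.17 on Day21, then 20.4, 30.5 and 27.5 on Day42. Its days were apart in the order Day21, Day0, Day42. VAT1L, a relative of the vesicle amine transport protein VAT1 (chr16:77788564-77980107), had 5.70, 4.85 and 5.73 FPKM on Day0, 1.49, 1.56 and 1.85 on Day21, then 87.5, 68.5 and 59.8 on Day42, the largest ratio of Day42 to Day0 among the members. BEX1, a small X-linked protein abundant in brain, had 204, 189.7 and 218 FPKM on Day0, 82.2, 88.8 and 86.2 on Day21, then 590.5, 569 and 791 on Day42. DPYSL3, a collapsin response mediator protein of growing axons, had 9.57, 9.79 and 16.9 FPKM on Day0, 3.00, 2.21 and 1.80 on Day21, then 26.6, 18.1 and 8.68 on Day42. PKIB, an inhibitor of protein kinase A, had 8.53, 14.01 and 13.4 FPKM on Day0, 4.12, 2.95 and 3.26 on Day21, then 17.8, 16.2 and 20.4 on Day42. BEX1 was above Day0 in every Day42 library and DPYSL3 overlapped, while PKIB was above Day0 in FPKM but overlapped in TMM-scaled counts. RAB5A, the GTPase of early endosomes, had 8.38, 9.14 and 10.3 FPKM on Day0, 3.77, 3.41 and 2.97 on Day21, then 12.8, 12.4 and 10.3 on Day42.

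In sugar, cofactor and retinoid handling there were 4 members. SLC2A3, the glucose transporter GLUT3, had 12.8, 12.2 and 16.5 FPKM on Day0, 3.21, 2.77 and 2.76 on Day21, then 10.6, 10.1 and 20.0 on Day42. UGP2, which makes UDP-glucose for glycogen and sugar chains (chr2:63840940-63891562), had 31.9, 44.4 and 43.3 FPKM on Day0, 5.81, 4.33 and 5.51 on Day21, then 18.8, 19.7 and 15.2 on Day42. SLC2A3 overlapped between Day0 and Day42, whereas UGP2 on Day42 was below every Day0 library. The transporter gene SLC2A1 was highest on Day21 instead, at 7.05 to 16.8 FPKM on Day0, 27.1 to 40.1 on Day21 and 0.00753 to 4.33 on Day42. None of the 18 other genes of glucose transport and glycolysis, and none of 22 other hypoxia targets, had every Day21 library below all others. NAMPT, the rate-limiting enzyme of NAD salvage, had 4.28, 6.33 and 5.79 FPKM on Day0, 1.18, 1.03 and 1.15 on Day21, then 9.30, 7.28 and 3.69 on Day42. CRABP2, which carries retinoic acid to its nuclear receptors, had 32.6, 33.8 and 39.0 FPKM on Day0, 15.5, 16.1 and 14.3 on Day21, then 70.4, 62.5 and 80.9 on Day42, with the days apart.

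The remaining 7 members act in the nucleus or in ubiquitin transfer. DDX47, PWP1, PAK1IP1 and TEX10 take part in ribosome assembly in the nucleolus. PWP1 was at 77.3, 84.4 and 72.6 FPKM on Day0, 34.4, 32.9 and 31.9 on Day21, then 109, 80.0 and 105 on Day42, and PAK1IP1 at 90.3, 159.9 and 79.6, then 30.3, 32.0 and 34.8, then 71.6, 115 and 131. DDX47 had 10.1, 16.0 and 13.3 FPKM on Day0, 3.10, 4.08 and 0.762 on Day21, then 25.4, 18.0 and 29.3 on Day42. It was one of 3 members, with B3GNT7 and SERPINB9, whose Day21 libraries differed by more than 2 times. TEX10 had 8.02, 6.22 and 8.27 FPKM on Day0, 2.89, 2.25 and 3.02 on Day21, then 6.74, 6.09 and 19.0 on Day42. Of these 4 genes, DDX47 alone had every Day42 library above every Day0 library in FPKM, and in TMM-scaled counts it overlapped too.

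CCNC, cyclin C of the Mediator kinase module, had 19.2, 24.5 and 16.8 FPKM on Day0, 5.47, 5.14 and 5.39 on Day21, then 19.1, 15.6 and 29.7 on Day42. RCHY1, a ubiquitin ligase that targets p53, had 8.34, 13.5 and 6.62 FPKM on Day0, 3.23, 3.26 and 3.06 on Day21, then 6.59, 21.1 and 30.4 on Day42. DCAF4, a substrate receptor of cullin ubiquitin ligases, had 3.38, 4.68 and 3.87 FPKM on Day0, 1.52, 1.26 and 1.38 on Day21, then 8.46, 3.79 and 3.60 on Day42. All 3 overlapped between Day0 and Day42.

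How completely the 36 genes returned was asked by testing Day42 against Day0. The test was edgeR's quasi-likelihood test on the counts of all 9 libraries with TMM scaling, over 20156 genes, and calls needed a log2 change of 1 or more in size beside a p-value under 0.05 after Benjamini-Hochberg adjustment. VAT1L, TNFRSF12A and RAB3B were called higher on Day42, 3 of 36 (8.33%, against 8.82% of all genes tested). KRT18, GAL, FABP3, UGP2 and PLPP1 were called lower, 5 of 36 (13.9%, against 23.4%). Nothing is read from either share, because the floor of the rule bars genes lost by Day42 and genes silent on Day0. The other 28 were not called, which does not show that their levels were equal, and 11 members had an unadjusted p under 0.05.

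VAT1L rose by 3.02 on the log2 scale (SE 0.28, adjusted p = 0.0003), TNFRSF12A by 1.57 (SE 0.39, adjusted p = 0.0159) and RAB3B by 1.10 (SE 0.27, adjusted p = 0.0141). KRT18 fell by 3.43 (SE 0.28, adjusted p = 0.000176), GAL by 2.61 (SE 0.31, adjusted p = 0.000796), FABP3 by 2.10 (SE 0.31, adjusted p = 0.00205), UGP2 by 1.85 (SE 0.21, adjusted p = 0.00062) and PLPP1 by 1.52 (SE 0.36, adjusted p = 0.0131). VAT1L, KRT18, GAL, FABP3 and UGP2 were called in each of 16 alternative analyses. The calls of TNFRSF12A, RAB3B and PLPP1 depended on single libraries. Without Day0 replicate 1 the adjusted p was 0.067 for RAB3B and 0.0514 for PLPP1, and for TNFRSF12A it was 0.0627 without Day0 replicate 2 and 0.0544 without Day0 replicate 3. Without Day42 replicate 1 there were 5 higher calls in place of 3, with BEX1 and CALB1 added. Without Day42 replicate 3 the log2 change of RAB3B was 0.88, under the fold threshold. SERPINB9 itself had a log2 change of -1.48 (SE 0.74, adjusted p = 0.168) and B3GNT7 one of -2.36 (SE 1.15, adjusted p = 0.159). BEX1 passed the adjusted p at 0.0108 with a change of 0.98, just under the fold threshold, and CALB1 at 0.0414 with 0.95.

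**Figure D3:**
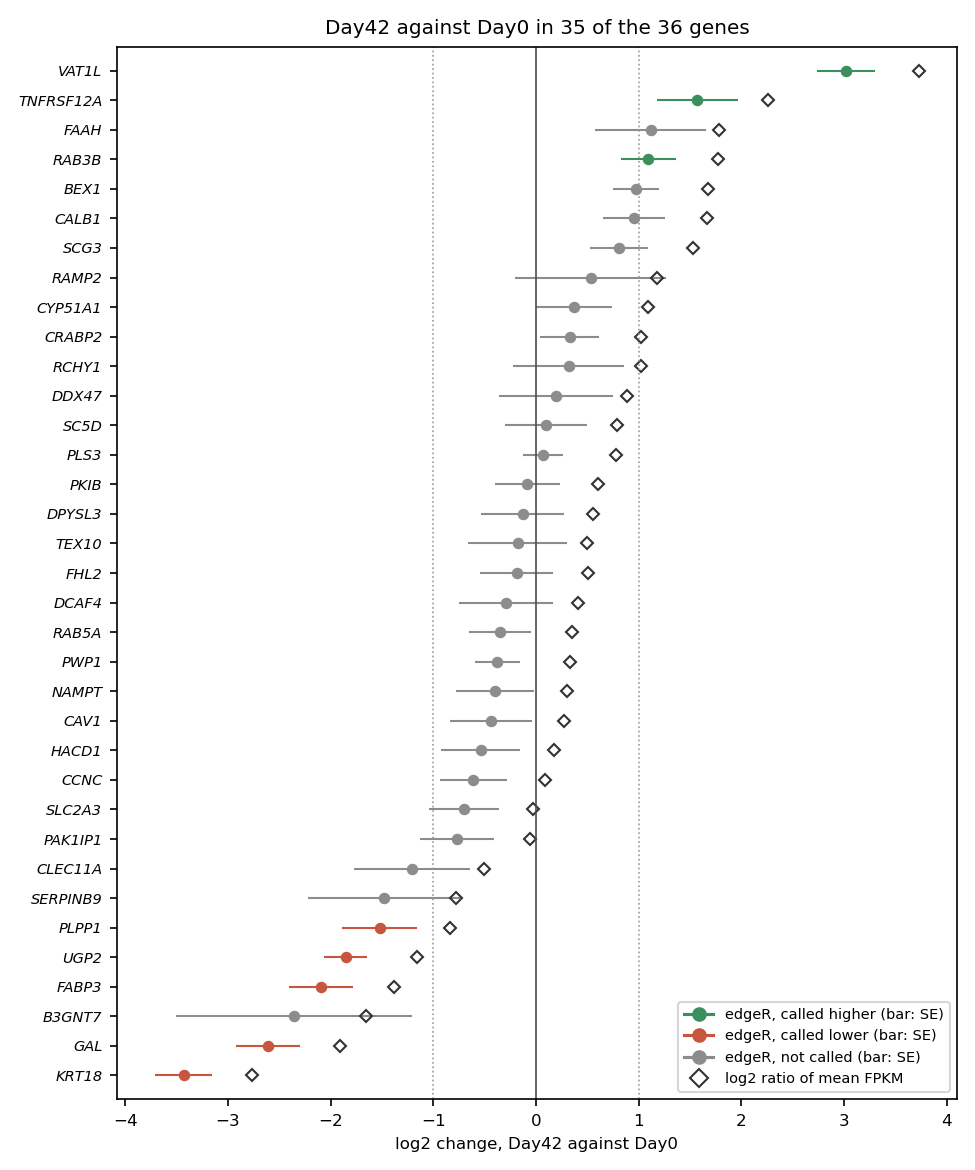
Day42 against Day0 in 35 of the 36 genes on a log2 axis, with dotted lines at -1 and 1. Filled circles are edgeR's TMM-scaled change with its standard error, coloured by call, and open diamonds the log2 ratio of the mean FPKM; the diamonds lie to the right of the circles in every gene, so the 11 genes from CCNC to PKIB change side at 0.

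Whether a member ended above or below its Day0 level depended on the scale for part of the set. By mean FPKM 26 members were higher on Day42 and 10 lower, and by TMM-scaled counts 15 were higher and 21 lower. The 11 that changed side were CCNC, HACD1, CAV1, NAMPT, PWP1, RAB5A, DCAF4, FHL2, TEX10, DPYSL3 and PKIB, none of them called. The median change of the members was 0.50 in FPKM and -0.18 with TMM. In the 2946 tested genes that were at 3 FPKM or more in all Day0 and Day42 libraries the medians were 0.29 and -0.41, a shift of 0.70, and 11.0% of these genes were called higher and 30.7% lower. The median over all genes tested was -0.57 with TMM. On each scale 23 of the 36 members were above the median of these comparable genes. They are comparable in level only, as they include the members and are not limited to protein-coding genes. In FPKM, all Day42 libraries lay above all Day0 libraries in 13 members (36.1%) and below them in 5 (13.9%), with 18 overlapping. In TMM-scaled counts 7 lay above, 7 below and 22 overlapped, and no share over all genes was counted on that scale. FAAH, PLS3, CYP51A1, DDX47 and PKIB, separated upward in FPKM, overlapped there, and CLEC11A and RAB5A were separated downward. In FPKM over all genes tested 16.1% were separated upward and 27.3% downward, and over the comparable genes 33.2% and 25.4%. limma on log2(FPKM + 1), a log scale that understates changes of low genes, called 9 members higher and 4 lower, where it called 22.1% and 19.6% of the 10619 genes it tested.

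The depth of the dip also moved with the scale. With TMM-scaled values every member had its lowest Day0 or Day42 value above its highest Day21 value, the smallest ratio being 1.18 for TEX10. The TMM multipliers are too close together to reverse a ratio of 2 or more, so this order was set by the rule. On TMM-scaled values the rule itself kept 21 of the 36: 13 were below 2 times, and B3GNT7 and NAMPT were below the floor of 3. With Day21 replicate 1 left out 56 genes met the rule in place of 36, and with Day42 replicate 3 left out 55. Each case includes all 36, because leaving out a library can only add genes. As TPM, 31 of the 36 met the rule and RAB5A, DCAF4, PKIB, RCHY1 and CRABP2 did not. The members nearest the threshold were TEX10 (2.02), RCHY1 (2.02), CRABP2 (2.02), PAK1IP1 (2.06) and PKIB (2.07). Just outside lay ZNF354A (1.98), KCMF1 (1.93), CDC37L1 (1.92), ATP6V1C1 (1.92) and PIM2 (1.92), so the set has no gap at its edge.

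**Figure D4:**
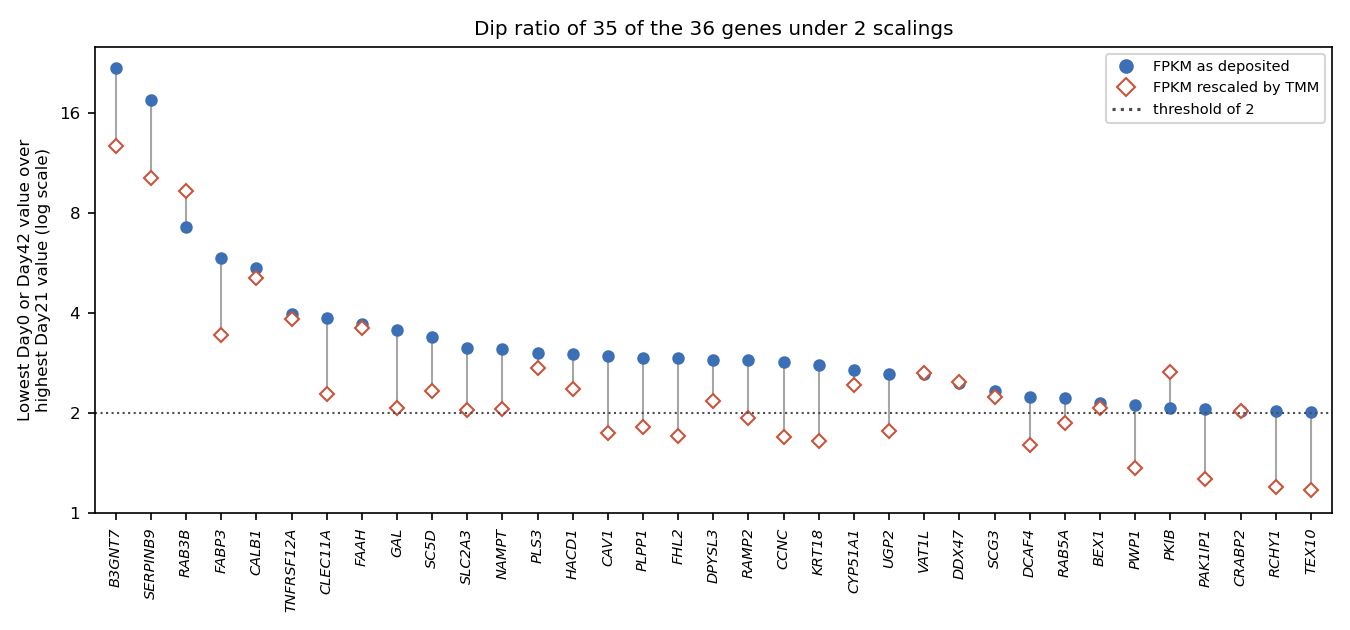
Dip ratio on a log axis for 35 of the 36 genes, from the deposited FPKM (circles) and from the same values rescaled by TMM (diamonds), with the threshold of 2 dotted. All values lie above 1, as a ratio of 2 or more must after the TMM multipliers. The ratio of 13 genes passes below 2 after rescaling, while B3GNT7, SERPINB9 and RAB3B stay highest.

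Libraries of one day were not equally close. The highest library of a day was a median 1.45 times the lowest on Day0, 1.30 times on Day21 and 1.86 times on Day42, and more than 2 times in 7, 3 and 13 members. Day42 replicate 3, in which fewest genes were detected, was the highest library of its day for 21 members, the lowest for 9 and between for 6. The lowest of the 6 high values came from Day0 in 17 members and from Day42 in 19.

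The members were spread over the genome. They lay on 18 chromosomes, and the closest pair, SLC2A3 and DDX47, was 4.88 Mb apart. In GENCODE 29, 6 members (among them PLPP1, CYP51A1, VAT1L, DDX47 and PKIB) share bases with another model of the same strand, and 16 with a model of the opposite strand only, such as TNFRSF12A with CLDN6. CLDN6 was at 13.5 to 26.8 FPKM on Day0, 0.139 to 0.360 on Day21 and at most 1.54 on Day42, where TNFRSF12A was highest. Both genes were thus lower on Day21 than on Day0, and any sharing of reads was not tested. Values of overlapping genes are uncertain, because no source used here says whether the counting took account of strand. SLC2A3, NAMPT and CYP51A1 have 3 pseudogenes each named after them, and FABP3 and FAAH 1 each.

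In the gene ontology terms of the deposited table, 11 members carried extracellular exosome (30.6%, against 11.6% of 16963 annotated protein-coding genes). Lipid metabolic process had 5 (13.9% against 3.14%: CYP51A1, FAAH, HACD1, PLPP1 and SC5D). Nucleolus had 5 (13.9% against 4.82%: DDX47, KRT18, PAK1IP1, PWP1 and TEX10), and cytoplasmic vesicle 5 (13.9% against 4.36%, among them CAV1, RAB3B, RAB5A and SCG3). The terms named so far were picked from many. Broad terms lay near their share over all annotated genes, such as membrane (44.4% against 43.2%) and plasma membrane (27.8% against 24.9%). The annotated genes include many below the floor of the rule, no share over expressed genes was counted, and no term was tested. Of 41 gene lists, 7 held a member, with 8 members among them. Immediate early genes, the integrated stress response, antigen presentation and p53 targets held none. Members are 0.208% of protein-coding genes, so a short list is likely to hold none and nothing is read from this.

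Markers of other cell types were set beside the members. Blood markers were also lowest on Day21, with 10 genes summing to 7.22 to 8.55 FPKM on Day0, 0.505 to 0.698 on Day21 and 1.76 to 11.4 on Day42. AIF1 made most of the Day0 sum, the haemoglobin genes HBA1 and HBA2 most of the Day42 maximum, and the pan-leukocyte gene PTPRC stayed at or below 0.0692 FPKM in every library. Trophoblast markers summed to 9.40 to 16.5, 1.76 to 2.08 and 38.4 to 102 FPKM on the 3 days. On Day42 these were mainly GATA3, which serotonin neurons also express, and CGA, while TFAP2A, KRT7 and CGB5 were at 0. Endothelial markers summed to at most 3.19 FPKM in any library, and muscle markers to 152 to 268 on Day0 and at most 2.00 on Day42. ACTA1 (104 to 180) and ACTC1 (47.5 to 86.4) made most of the Day0 muscle sum, while DES, TNNT2, MYH6 and MYH7 were at 0.609 or less there. Mesenchyme markers were highest on Day21, summing to 1.15 to 1.98 FPKM on Day0, 108 to 115 on Day21 and 18.3 to 53.2 on Day42, mainly from LUM (77.7 to 89.5 on Day21). Neural crest markers summed to 3.49 to 4.72, 9.48 to 14.4 and 8.69 to 36.9 FPKM, with SOX10 at most 0.0616 in any library. Endoderm markers summed to 5.42 to 10.7, 18.2 to 25.9 and 25.6 to 39.1 FPKM, with SOX17 at most 0.0230, and glia markers to at most 10.6. The part of these cells in the members' levels was not tested.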

How the data were processed

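RNA sequencing measured 9 libraries of WA09 cells, 3 per day. Per the labels' protocols, about 10 ng of total RNA from Trizol extraction went into a low-input NEBNext library. The trimming program cutadapt 1.9, FastQC and the build GRCh38 appear in the submitters' processing notes; the aligner, counter, strand setting and annotation are stated in no source used here. Raw counts per gene and library and FPKM computed by the authors stand side by side in the deposited table, per the file headers. Counts of 4 were 2.17 times as frequent as the mean of counts of 3 and 5, so counts may not be single fragments. Column names gave each library, and 0 columns were unmatched.

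Members were found by the rule on FPKM. Members and gene lists were chosen with earlier results of these data known, so nothing about the members' Day21 levels was tested. All members but 1 are named; some genes are not reported here. Counts of all 9 libraries were fitted with edgeR 4.0.16 in R 4.3.3 (quasi-likelihood, filterByExpr, TMM, 1 mean per day, 6 residual degrees of freedom). The fit was tried first on simulated counts, which spread less between libraries than the real ones. That trial therefore does not show how reliable the calls are here. Adjusted p-values are Benjamini-Hochberg values over all 20156 genes. Alternatives used DESeq2 1.42.0, limma 3.58.1 (FPKM of at least 1 in 3 libraries, pseudocount 1 or 0.1), median-of-ratios scaling, no filter, no minimum fold, only the 2 days, the replicate number as a block, and each library left out. TMM-scaled FPKM are the deposited values times the ratio of plain to TMM library size. Tables were read with pandas 2.3.3 under Python 3.11.15 and drawn with matplotlib 3.10.9. The precision of each value is the spread of 3 libraries at the depths given with the results.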

Additional observations from a re-analysis of the deposited data

How the results depend on the processing

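The number of genes that met the rule moved with its settings. It was 36 as defined, 100 with a fold of 1.5, 15 with a fold of 3, 60 with a floor of 1 FPKM, 18 with a floor of 10 FPKM, 66 as TPM and 32 with TMM scaling. Leaving out 1 library gave 36 to 56, the most being 56 without Day21 replicate 1 and 55 without Day42 replicate 3. All 36 were kept each time, which the rule ensures, because leaving out a library can only add genes.

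Of the 36 members, 8 were called in Day42 against Day0, 3 higher and 5 lower. limma on log2(FPKM + 1) called 13 (9 higher) and on log2(FPKM + 0.1) 14 (10 higher), with median changes of 0.36 and 0.39 in place of -0.18. Without a minimum fold 5 were higher. Leaving out 1 library gave 7 to 10 calls, 2 to 5 higher and 4 to 7 lower, and a median of -0.30 to 0.02. The most higher calls (5) came without Day42 replicate 1, where BEX1 and CALB1 were added. Without Day42 replicate 3, CLEC11A (log2 change -1.77, edgeR adjusted p = 0.0151) and SLC2A3 (-1.15, adjusted p = 0.00342) were called lower. Over the single genes and alternatives 573 values kept their call or lack of one, 27 gained a call, 12 lost one and 0 reversed among called values. Genes without a call could change direction, as NAMPT did (-0.40 in the main fit and up to 0.22 in an alternative). Of all genes it tested, limma on log2(FPKM + 1) called 22.1% higher and 19.6% lower. For the other alternatives no share over all genes was counted, so nothing about the members is read from how many were called.

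With the replicate number as a block 5 were called, 1 higher and 4 lower, losing TNFRSF12A, RAB3B and PLPP1 (edgeR adjusted p 0.0532 to 0.0566). Libraries of the same number correlated at -0.225 to 0.0266, so the numbers do not pair them. The limits are 3 libraries per day, a Day42 group whose libraries differ in genes detected, and a scale that moves Day42 against the other days by 0.70 on the log2 scale.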
